A study of Mus musculus with 2 samples.

Results

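Occupancy by lysine-specific demethylase 1 (LSD1) was examined at 48 genes of the cell cycle and DNA replication, out of 21853 protein-coding genes, in mouse primary brown adipocytes. The 48 genes are a fixed list of names: cyclins and their kinases (CDKs), CDK inhibitors, E2F transcription factors, replication factors and regulators of mitosis. The list was chosen with earlier results of these data known. A gene was counted as promoter-bound when at least 1 base of an LSD1 peak lay within 1 kb of any start of its protein-coding transcripts, and as having a peak nearby when one fell anywhere from 10 kb before the gene to its end. The study made 2 libraries by chromatin immunoprecipitation and sequencing, 1 LSD1 immunoprecipitate and 1 input without antibody. Both came from cells of the C57BL/6 N strain with the genotype given as control, passaged 2 to 3 times, grown on collagen with 20% serum and differentiated for 10 days. The differentiation medium, shared by both libraries, held insulin at 850 nM, dexamethasone and rosiglitazone at 1 µM each, indomethacin at 125 nM, T3 at 1 nM and isobutylmethylxanthine at 500 µM. The labels do not say whether cells of several animals were pooled.

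The only measured values are the positions of 59175 LSD1 peaks and 1 score for each, the authors' own value, with a median of 111 over the list. No source used here gives the scale of the score, so it serves only to rank and describe peaks. With 1 immunoprecipitate there are no replicates, and no test was made; every count below is a description of 1 library set beside the same count over all genes. The list holds no read counts, so the depth is unknown. A peak list measures no expression, so neither the labelled cell type nor the activity of any of these genes could be checked with it.

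In a dividing cell, D-type cyclins with Cdk4 or Cdk6 and E-type cyclins with Cdk2 inactivate the retinoblastoma family of repressors, which frees E2F factors to switch on the genes of DNA replication. Later, B-type cyclins with Cdk1 drive mitosis, and many mitotic genes are held down in resting cells by a repressor complex that recognises a short promoter element, the cell cycle genes homology region (CHR), often next to CCAAT boxes. Differentiated adipocytes have left the cycle, a step in which CDK inhibitors and retinoblastoma proteins take part. LSD1 removes methyl groups from histones and works within corepressor complexes.

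An LSD1 promoter peak was found at 40 of the 48 genes, or 83.3% (Wilson 95% interval 70.4 to 91.3%, which covers counting error only, and genes are not replicates), while the share over all protein-coding genes was 55.8%. The promoters of these genes are rich in CpG, and LSD1 occupancy over the whole genome rose with CpG content. When all genes were ranked by promoter CpG and split into deciles, 3.48% were bound in decile 1 and 93.4% in decile 10. No cell cycle gene lay in the 4 lowest deciles. Averaged over the deciles in which the 48 genes lie, 85.9% of all genes were bound, close to the 83.3% of the list. A peak anywhere from 10 kb upstream to the gene end was found for 44 genes, 91.7%, against 69.8% of all genes. These 44 include the 40 genes with a promoter peak, and the 69.8% was not matched for CpG content or gene length. Orc1, Ccnb1, Ccnb2 and Bub1 had none. Scores at the 40 bound promoters had a median of 289.7 and ran from 57.2 at Mcm5 to 1189 at Wee1, and the median over all 12199 bound genes was 315.

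Counts of bound genes were set side by side for the 5 roles. All 8 G1 cyclins and kinases and all 6 CDK inhibitors were bound, as were 7 of 8 E2F genes and 9 of 10 replication genes. In the same CpG deciles, the share of all genes bound was 83.7% for the G1 group and 86.2% for inhibitors. It was 90.3% for E2F genes, above their own 87.5%, and 86.3% for replication genes, below their own 90.0%. Of the 16 genes of G2 and mitosis, 10 were bound and 6 were not. Taken as shares, 62.5% of mitotic genes carried a promoter peak (Wilson 95% interval 38.6 to 81.5%), while 84.5% of all genes in the same CpG deciles did. The other 32 genes were bound in 93.8% of cases, and 86.6% of all genes in their deciles were. Median scores were 576 for E2F genes, 441 for inhibitors, 311 for G1 cyclins and kinases, 218 for mitotic genes and 137 for replication genes. These values rest on 6 to 10 bound genes per role and 1 library, and the ranges of all 5 roles overlap.

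**Figure D1:**
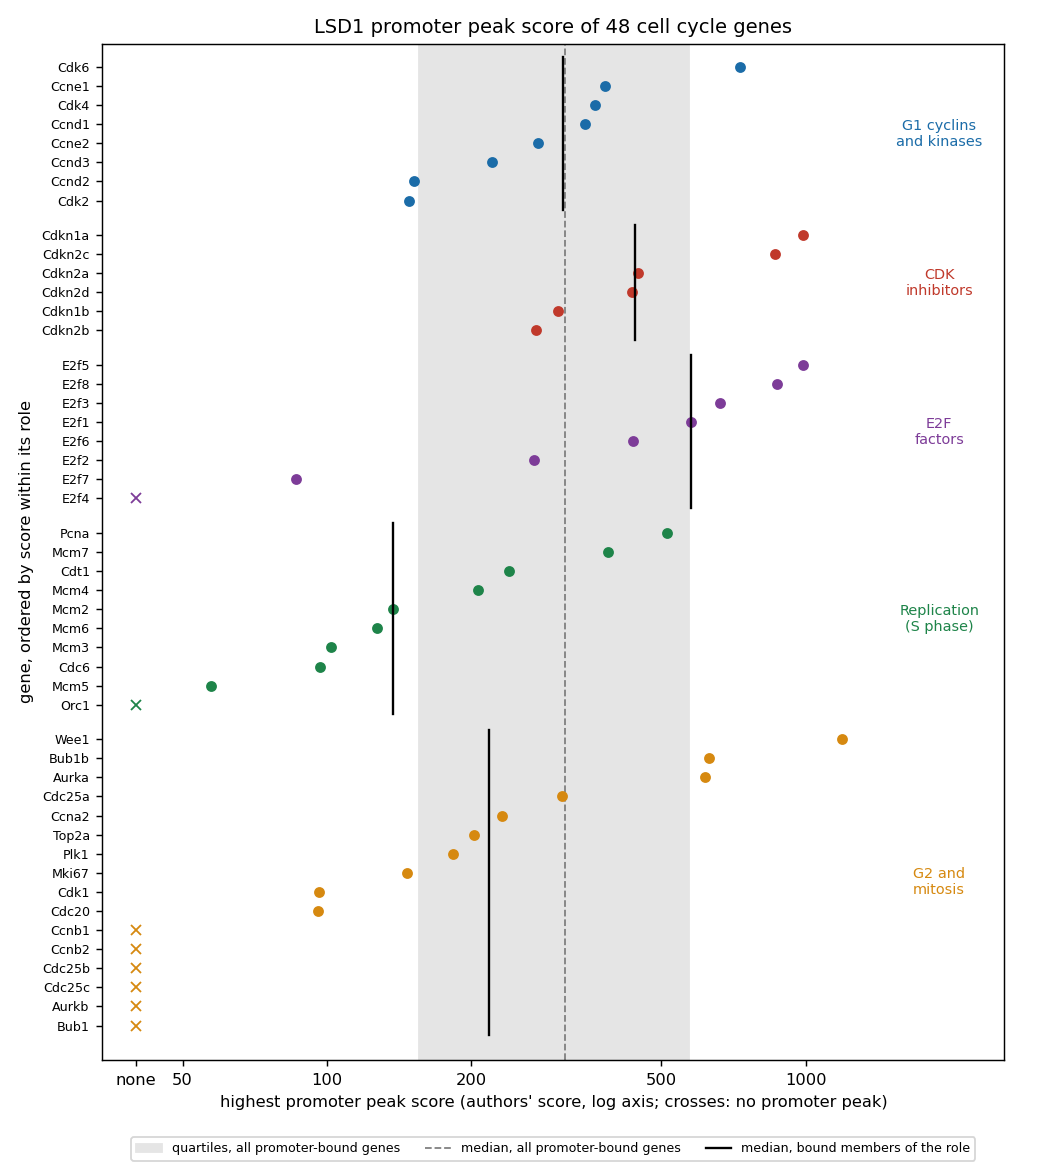
Highest LSD1 promoter peak score of each of the 48 genes (log axis, the authors' score), grouped by role, with crosses for genes without a promoter peak, black lines for the median of each role and a grey band for the quartiles of all promoter-bound genes (156 to 570). Of the 8 crosses 6 are in the mitotic group, and 7 of the 9 replication genes with a peak score below the median of all bound genes, 315.

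**Figure D2:**
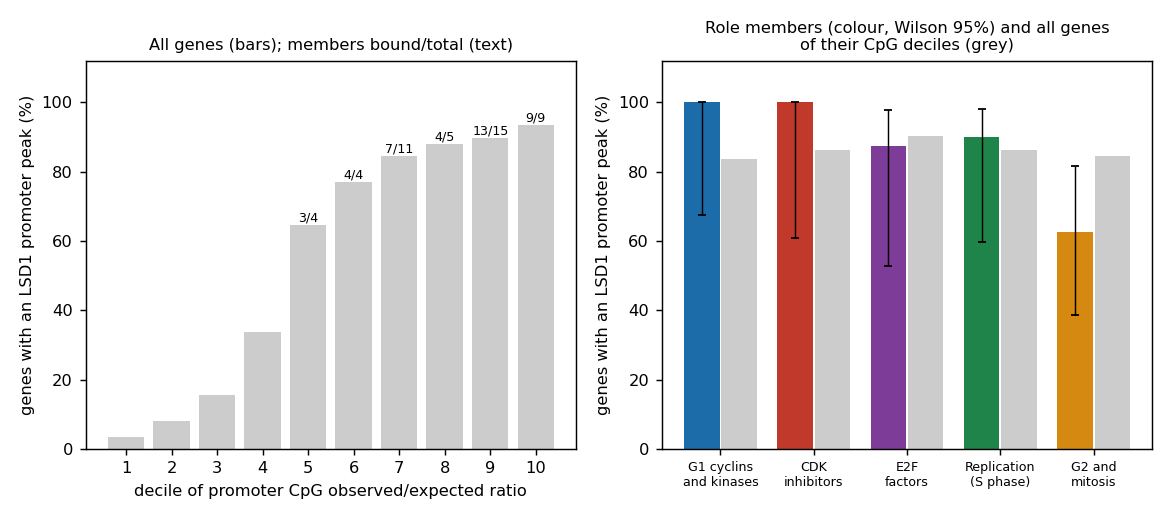
Left, share of all protein-coding genes with an LSD1 promoter peak in each decile of promoter CpG content, with the number of bound cell cycle genes over their total written above. Right, the share bound in each role (coloured, with Wilson 95% intervals) beside the share of all genes in the same CpG deciles (grey). In the mitotic group the coloured bar, 62.5%, lies below the grey one, 84.5%.

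Promoter sequences of some replication and mitotic genes are shown for the short words they hold, and counts follow in the next paragraph. Printed below, 5′ to 3′ on the strand of the gene, are bases just upstream of the main start of 6 genes, read from the RefSeq GRCm38.p6 assembly, whose chromosomes are those of mm10. Capitals mark matches on either strand to an E2F word (TTTCCCGC, TTTGGCGC, TTTCGCGC or TTTGCCGC), a CHR word (TTTGAA or TTCGAA) or CCAAT. Mcm6 (chr1:128359665-128359824, minus strand) and Mcm5 (chr8:75109349-75109568, plus strand) are the listed replication genes with the most E2F words, 3 each. Both hold a pair of E2F words that overlap on opposite strands, which no other listed replication gene does. Pcna, Mcm2 and Mcm7 have no E2F word near their main start. Cdk1 (chr10:69352939-69353058, minus strand) holds both kinds of word and has a low-scoring peak downstream of its start. Top2a (chr11:99024190-99024379, minus strand) is bound, Ccnb2 (chr9:70421548-70421727, minus strand) has no peak, and Wee1 (chr7:110121866-110122045, plus strand) has the highest promoter score of the list. Only matches that lie wholly inside the printed bases are marked. Ccnb2 has a second CHR word whose first base is at -3 bp from its start, so it is cut off and unmarked. Cdk1 also has a second CHR word, 11 bp downstream of its start, beyond the printed bases.
Mcm6: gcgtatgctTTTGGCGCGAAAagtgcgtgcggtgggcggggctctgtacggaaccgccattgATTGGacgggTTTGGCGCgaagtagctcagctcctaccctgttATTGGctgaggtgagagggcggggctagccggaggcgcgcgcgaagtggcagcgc
Mcm5: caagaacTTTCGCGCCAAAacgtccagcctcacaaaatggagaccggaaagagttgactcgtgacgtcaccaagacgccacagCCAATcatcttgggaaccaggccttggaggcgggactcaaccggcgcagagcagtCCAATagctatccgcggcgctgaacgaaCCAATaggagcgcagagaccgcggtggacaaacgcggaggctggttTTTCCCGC
Cdk1: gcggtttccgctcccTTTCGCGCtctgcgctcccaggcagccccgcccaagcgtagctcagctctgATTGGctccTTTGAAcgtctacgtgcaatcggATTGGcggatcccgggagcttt
Top2a: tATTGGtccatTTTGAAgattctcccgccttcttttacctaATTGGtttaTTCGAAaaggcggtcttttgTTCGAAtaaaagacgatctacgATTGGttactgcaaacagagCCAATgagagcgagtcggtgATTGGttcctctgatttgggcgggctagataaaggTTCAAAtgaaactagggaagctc
Ccnb2: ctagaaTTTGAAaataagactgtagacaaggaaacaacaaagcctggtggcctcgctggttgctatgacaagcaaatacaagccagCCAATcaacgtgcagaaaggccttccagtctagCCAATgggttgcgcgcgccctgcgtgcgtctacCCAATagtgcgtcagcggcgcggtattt
Wee1: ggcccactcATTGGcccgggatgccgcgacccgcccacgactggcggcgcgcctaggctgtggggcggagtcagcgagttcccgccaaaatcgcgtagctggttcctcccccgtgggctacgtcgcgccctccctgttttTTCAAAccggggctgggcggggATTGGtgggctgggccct

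Each gene was searched in the 300 bases from 250 before to 50 after its main start. An E2F word occurred in 14 of the 48 genes, 29.2%, against 2.89% of all protein-coding genes. Replication genes held 7 of these 14, namely Mcm3, Mcm4, Mcm5, Mcm6, Cdc6, Cdt1 and Orc1. E2f1, E2f2 and E2f7 had one as well, as had Cdk2, Cdkn2a, Cdc25a and Cdk1. A CHR word occurred in 13 of 16 mitotic genes, 81.3%, and in 17.3% of all genes. Of the 10 replication genes, 1 had a CHR word, and that was Mcm2. CCAAT was present in 15 of the 16 mitotic genes, 93.8%, and in 38.6% of all genes. With windows at every coding start in place of the main one the E2F count was 18 of 48 and the CHR count 22. A match is a match of letters and does not show that a factor binds there.

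Bound and unbound cell cycle genes both held these words. A CHR word was present in 8 of the 10 bound mitotic genes and in 5 of the 6 unbound ones (all but Ccnb1), and CCAAT in 9 of 10 and 6 of 6. The 13 bound genes of the whole list with an E2F word had a median score of 149, and the 27 without had 382. Over all bound genes the order was the other way round, with medians of 370 with the word and 314 without. Of the 13 listed genes with the word, 6 were replication genes, the role with the lowest median score. Among the 27 without it, the replication genes were Pcna, Mcm2 and Mcm7. Word and role were not separated. Among all 13112 genes in CpG deciles 5 to 10, those with both a CHR word and CCAAT were bound in 80.1% of cases and the rest in 83.1%.

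**Figure D3:**
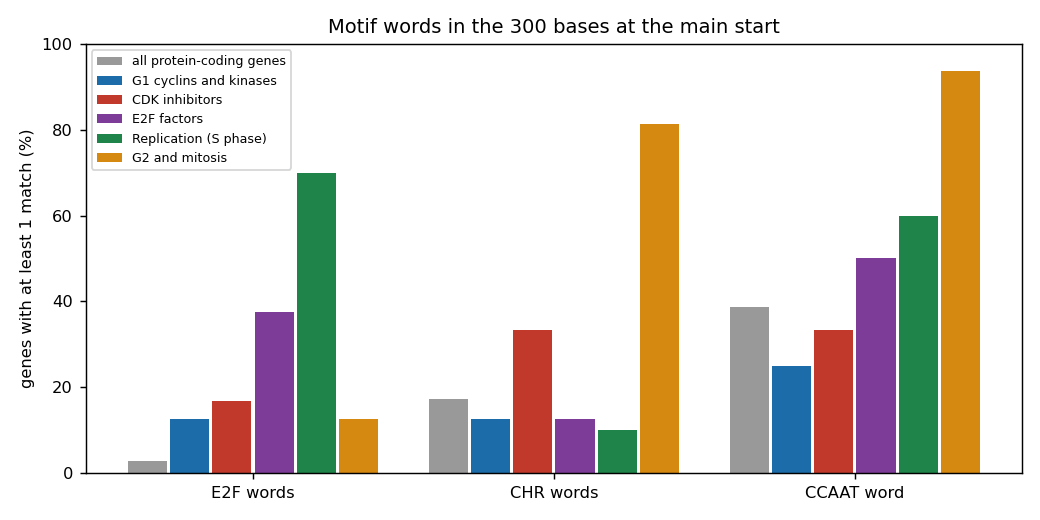
Share of genes with at least 1 E2F word, CHR word or CCAAT in the 300 bases at the main start, for all protein-coding genes (grey) and for each role (colours). E2F words are most frequent in replication genes (7 of 10), and CHR words and CCAAT in mitotic genes (13 and 15 of 16).

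Among the G1 cyclins and kinases the highest promoter score was at Cdk6, the partner of D-type cyclins, with 731 (chromosome 5, 3343464 to 3344878). Ccne1, a cyclin that activates Cdk2 at the entry to S phase, had 382 (chromosome 7, 38106883 to 38107976). Cdk4, the other kinase of D-type cyclins, followed with 362 (chromosome 10, 127062758 to 127064002). Next came Ccnd1 with a score of 346, Ccne2 with 276, Ccnd3 with 222, Ccnd2 with 152 and Cdk2 with 149. Ranked among all bound genes of the genome, Cdk6 stood at percentile 84.1, and the other 7 at percentile 58.0 (Ccne1) or lower. The Cdk2 peak did not reach the Cdk2 start, ending 6 bp before it, and lay within 1 kb of a start of the neighbouring gene Pmel.

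Cyclin D genes also carried peaks away from their promoters. Upstream of Ccnd1, which links growth signals to the cycle, a peak of 3101 bp (chromosome 7, 144940940 to 144944040) scored 1529, the highest of all 117 peaks in the 48 gene windows. Its midpoint lay at -2621 bp (upstream) from the Ccnd1 start, no other coding start lay within 1 kb of it, and it scored higher than the 346 of the peak over the start itself. Ccnd3 had 12 peaks, the most of any listed gene, in a window that includes 94.6 kb of gene. An intronic one (chromosome 17, 47510590 to 47512172) scored 764, while 3 promoter peaks scored 104, 80.3 and 222. The one scoring 80.3 covers the main start, and the one scoring 222 covers coding starts of which the first is 88419 bp downstream of the main start. A further Ccnd3 peak, at 47501459 to 47502674 with a score of 672, lay within 1 kb of a start of Taf8. Ccnd2 had 6 peaks, of which 4 were intronic with scores from 83.9 to 105. Cdk6 also had 6, with 4 intronic peaks scoring 75.5 to 81.1, all below the list median of 111. Cdk4 had a peak upstream with a score of 498, within 1 kb of a start of March9.

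CDK inhibitors, the brakes of the cycle, were bound in 6 of 6 cases (Wilson 95% interval 61.0 to 100%), and 86.2% of all genes in the same CpG deciles were. Cdkn1a, the inhibitor induced by the tumour suppressor Trp53, scored 986, percentile 91.9 of all bound genes (chromosome 17, 29093432 to 29095171). That peak covered the Cdkn1a starts at 29093769 and 29093781 and not the main start, 2790 bp upstream of the first of them, which had no peak within 1 kb. Cdkn2c, an inhibitor of Cdk4 and Cdk6, scored 864 (chromosome 4, 109665631 to 109667362). Cdkn2a scored 447 (chromosome 4, 89294098 to 89295333). Cdkn2a makes unrelated proteins from separate first exons, Arf from the upstream start and an inhibitor of Cdk4 and Cdk6 from the downstream one. Its promoter peak covered the upstream start at 89294653, and no peak lay within 1 kb of the downstream start at 89282192. Cdkn2d scored 434, Cdkn1b, the inhibitor of Cdk2 that accumulates in resting cells, 303, and Cdkn2b 274. Every one of these 6 promoter peaks covered a start of its gene. Peaks scoring above the promoter peak lay at the far ends of the Cdkn2c and Cdkn2d windows, with scores of 1153 and 752, and both were within 1 kb of a start of another gene, Faf1 and Kri1.

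E2F genes had the highest median of the roles and also a gene without a promoter peak. E2f5, a factor that works mainly in repressor complexes, scored 988 (chromosome 3, 14578030 to 14579502). E2f8, an atypical E2F that represses, scored 873 (chromosome 7, 48880542 to 48882656), and its midpoint lay at -3 bp from the start. E2f3, an activator, scored 661 (chromosome 13, 29984886 to 29986961). That peak covered the E2f3 start at 29986063 and not the main start at 29984391, and its near edge was at -495 bp (upstream) from the main start. E2f1, the best known activator, had a peak of 2197 bp with a score of 576, followed by E2f6 with 436 and E2f2 with 271. E2f7, the second atypical repressor, had a narrow peak scoring 86.3 (chromosome 10, 110745028 to 110745665). Repressor E2Fs stood at both ends of the order and, with E2f6, in its middle, among the activators E2f1, E2f2 and E2f3. E2f4, the main repressor E2F of resting cells (chromosome 8, 105297663 to 105305370), had no promoter peak although 84.4% of all genes in its CpG decile did. Its nearest peak edge was 6016 bp from its start, and both peaks in its window, scoring 572 and 363, were within 1 kb of a start of 4931428F04Rik. E2f2 had 7 peaks, among them 1 over a coding exon 8093 bp into the gene with a score of 339, above the 271 at its promoter.

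Replication genes were mostly bound, with low scores. Pcna, the sliding clamp of DNA polymerases, had the highest, 515 (chromosome 2, 132252374 to 132253632). Mcm7 scored 387 (chromosome 5, 138170868 to 138172335), in a peak within 1 kb of a start of Ap4m1. Cdt1, which loads the MCM helicase, scored 241 (chromosome 8, 122567365 to 122568326). The remaining MCM genes, subunits of the same 6-part helicase, scored 207 at Mcm4, 137 at Mcm2, 128 at Mcm6, 102 at Mcm3 and 57.2 at Mcm5, a median of 132 for all 6. The Mcm5 peak (chromosome 8, 75108821 to 75109419) stands at percentile 0.0779 of all bound genes. Cdc6, a partner of Cdt1 in loading the helicase, scored 96.7. Orc1, the largest subunit of the origin recognition complex (chromosome 4, 108579423 to 108614833), had no peak in its window, and its nearest peak edge was 35893 bp from its start, in a CpG decile where 89.8% of genes were bound. Of the 9 bound replication genes, 2 scored above the median of their own CpG decile, Pcna and Mcm7. In the other roles 5 of 7 bound E2F genes, 4 of 6 inhibitors, 3 of 8 G1 cyclins and kinases and 3 of 10 mitotic genes did.

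Several MCM peaks lay beside the start. For 4 of the 6 MCM genes, Mcm2, Mcm3, Mcm4 and Mcm5, the highest promoter peak covered no coding start, whereas over all bound genes it covered one in 81.9% of cases and over the 40 bound cell cycle genes in 33. The Mcm5 peak ended 150 bp before the start, and the Mcm4 peak ended 27 bp before it, within 1 kb of a start of Prkdc. The Mcm2 peak began 789 bp into the gene. Mcm3 had a second, lower peak scoring 86.7 that did cover its start, and its higher peak held the start of Gm20587, not annotated as protein-coding. Mcm6 had its peak over the start, from 218 bp before to 447 bp after. Upstream of Mcm2 a peak scoring 445 lay within 1 kb of a start of Tpra1.

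Genes of G2 and mitosis held both the highest promoter score and most of the gaps. Wee1, the kinase that restrains Cdk1, scored 1189 in a peak of 2192 bp (chromosome 7, 110121402 to 110123593), percentile 94.9 of all bound genes. Bub1b, a spindle checkpoint protein, scored 629 (chromosome 2, 118597656 to 118598551). Aurka, a kinase of the spindle poles, scored 616 (chromosome 2, 172370414 to 172371472), in a peak within 1 kb of a start of Cstf1. Cdc25a, a phosphatase that activates CDKs, scored 309.8, Ccna2 233, Top2a 203, Plk1 183 and the proliferation marker gene Mki67 147. Cdk1, the central mitotic kinase, had a peak scoring 96.3 that began 496 bp into the gene, and Cdc20, an activator of mitotic protein destruction, one of 96.1 (chromosome 4, 118436818 to 118437344). Of the 10 bound genes, 3 scored above the median of their CpG decile, namely Wee1, Bub1b and Aurka.

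The 6 mitotic genes without a promoter peak were the B-type cyclins Ccnb1 (chromosome 13, 100778650 to 100786570) and Ccnb2 (chromosome 9, 70407692 to 70421547), the phosphatases Cdc25b (chromosome 2, 131186949 to 131198497) and Cdc25c (chromosome 18, 34732993 to 34751533), the kinase Aurkb of the chromosomal passenger complex (chromosome 11, 69045647 to 69051664) and the checkpoint kinase Bub1 (chromosome 2, 127801122 to 127831865). The nearest peak edge to any of their starts was 4310 bp away at Aurkb, 7020 bp at Cdc25b, 7247 bp at Cdc25c, 10205 bp at Ccnb1, 16964 bp at Ccnb2 and 38938 bp at Bub1. At the other side of the limit, Mcm2 was the bound gene with the most distant peak, 789 bp, and Cdk1 followed with 461 bp. Aurkb had 3 upstream peaks scoring 214, 272 and 650 and 1 over an untranslated region scoring 101, and no other coding start lay within 1 kb of them. Pairs of related genes differed in this role. Bub1b was bound and Bub1 was not, Aurka was bound and Aurkb was not, Ccna2 was bound and both B-type cyclins were not, and of the Cdc25 phosphatases Cdc25a alone was bound.

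Of the 117 peaks counted for the 48 genes, 49 were promoter peaks and 68 lay elsewhere, 30 in introns, 30 upstream, 4 over untranslated regions, 3 over coding exons and 1 past a gene end. The 68 scored from 70.5 to 1529, and 13 of them lay within 1 kb of a coding start of another gene. For 13 of the 48 genes the highest peak was not a promoter peak. These were Ccnd1, Ccnd3, Cdk4, Cdkn2c, Cdkn2d, E2f2, Mcm2, Cdc6, Cdc20 and the unbound E2f4, Cdc25b, Cdc25c and Aurkb. Neither this count nor the split of peaks by place was made over all genes, so both describe the list only. Positions alone link a peak to a gene here, so a peak near starts of 2 genes was counted for the listed gene, and the list does not say which of them it belongs to. With protein-coding neighbours this holds for the promoter peaks of Cdk2, Mcm4, Mcm7 and Aurka and for the 13 peaks near another coding start. The start of a gene not annotated as protein-coding also lay inside promoter peaks of Mcm3, Pcna, Plk1 and Cdkn1a and an intronic Ccnd2 peak. Of the 115 coding starts of the 48 genes, 92 had a peak within 1 kb and 70 lay inside a peak. Ccnd3 alone has 15 of these starts. The same counts were not made over the 54361 coding starts of all genes, so they describe the list only.

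**Figure D4:**
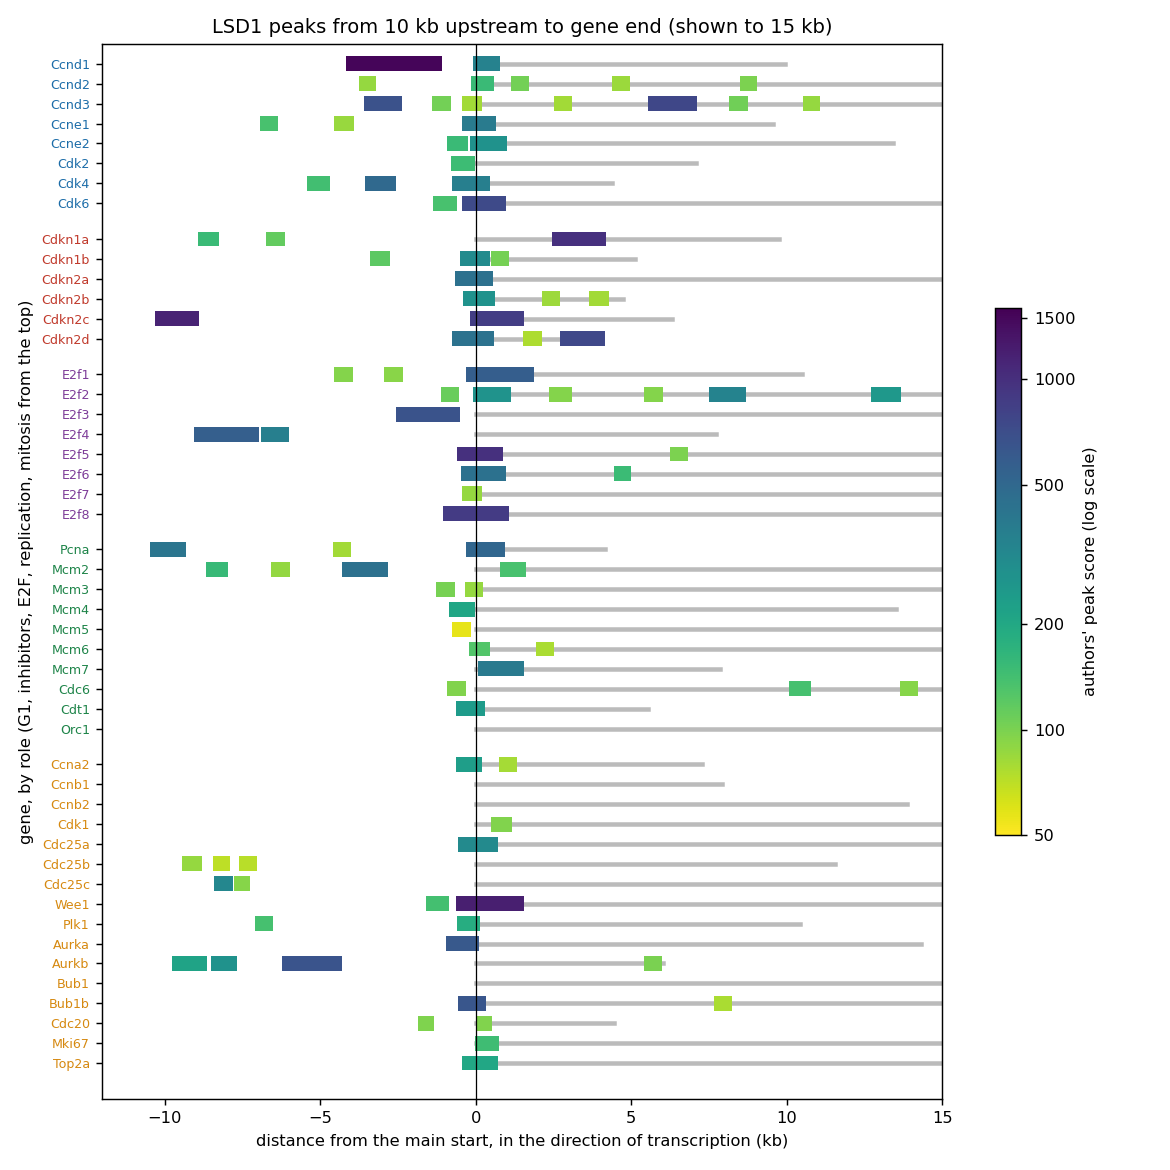
LSD1 peaks (bars coloured by the authors' score, log scale) around the main start of each gene, with the gene body in grey, in the direction of transcription, from 10 kb upstream to the gene end or 15 kb. The 3101 bp Ccnd1 peak lies upstream of the start, and the rows of Orc1, Ccnb1, Ccnb2 and Bub1 are empty.

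A further 79 genes of the same pathways were examined in the same way, with 66 bound at the promoter, 83.5%, against 85.1% of all genes in the same CpG deciles, and a median score of 265. Retinoblastoma family members and partners of E2F and of the CHR-binding complex were bound in 11 of 12 cases, led by Rb1 with a score of 1423, Lin37 with 858 and Lin52 with 645, all but Tfdp2, and 86.4% of all genes in their CpG deciles were. Checkpoint and inhibitor genes were bound in 10 of 10, led by Fbxw7 with 822, Atm with 758 and Pkmyt1 with 535, where the share of all genes in their deciles was 86.0%. Other replication genes were bound in 26 of 31, or 83.9%, against 84.3% in their deciles, led by Gins2 with 722, Cdc7 with 715 and Cdc45 with 699.8, and Mcm10, Gins3, Pola1, Rfc3 and Tyms had no promoter peak. The median score of these 26 was 231, and 10 of them scored above the median of their own CpG decile. In 25 of the 26 the highest promoter peak covered a coding start. For the 9 bound replication genes of the list the same values were 137, 2 and 5. Other mitotic genes were bound in 19 of 26, or 73.1%, against 85.1% of all genes in their CpG deciles. Fzr1 with 1453, Cks1b with 1151 and Kif11 with 474 scored highest there, and Ttk, Cenpf, Nuf2, Incenp, Tpx2, Cdc27 and Pttg1 had none. Among these named genes the peaks of Lin52, Cdc45, Cks1b and Atm lay within 1 kb of a start of a neighbour (Aldh6a1, Ufd1, Shc1 and Npat). The peaks of Fbxw7 and Cks1b covered no coding start of their gene. The midpoint of the Fbxw7 peak lay at -137733 bp (upstream) from the main start, near another start of the gene.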

How the data were processed

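LSD1 chromatin immunoprecipitation and input libraries were aligned with Bowtie2 to the mm10 genome, per the labels' protocols, and the submitters' processing notes list MACS 1.41. No source used here gives the Bowtie2 version, read filters, peak threshold or role of the input. The deposited file gives a position and a score for each peak, and the score is the authors' value. The input has no values of its own and was not analysed here.

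Peaks were compared with the GRCm38.p6 assembly, which has the chromosomes of mm10, and GENCODE M21, in Python 3.11.15 with pandas 2.3.3 and pysam 0.24.0. Coordinates count the first base as 1. All 48 genes and the 79 further pathway genes matched the annotation by symbol. Starts are those of protein-coding transcripts, and the main start is that of the best APPRIS transcript, the most upstream where several tie. CpG content is the observed over expected CpG ratio within 500 bp either side of a start, the highest over a gene's starts. A gene's promoter score is its highest promoter peak score. Overlap calls were tested on simulated data.

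Every gene of the list is accounted for, and positions are given for the 3 highest promoter scores of each role, genes without a promoter peak, the 3 lowest scores and the genes with most peaks; of further genes, the 3 highest scores and those without a peak. The members and lists were chosen with earlier results of these data known. The alternatives changed the promoter size, overlap rule, starts used, upstream reach and score threshold.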

Additional observations from a re-analysis of the deposited data

How the results depend on the processing

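With promoters of 500 bp or 2.5 kb, midpoints required inside the promoter, or the main start of each gene alone, between 39 and 40 of the 48 genes were bound. Of all genes, 53.7%, 59.1%, 54.1% and 53.0% were bound under these settings, in that order. Mcm2 was lost with 500 bp and with the midpoint rule, and Cdkn1a with the main start alone. The mitotic count was 10 under each of these. With peaks scoring at least the list median, 34 genes were bound (8 of them mitotic), against 47.3% of all genes, and E2f7, Mcm3, Mcm5, Cdc6, Cdk1 and Cdc20 were lost. Restriction to the 10% highest-scoring peaks lowered every count. It left 14 of the 48 genes bound, against 22.8% of all genes, with 1 of 8 G1 cyclins and kinases, 4 of 6 inhibitors, 5 of 8 E2F genes, 1 of 10 replication genes and 3 of 16 mitotic genes. Of the 79 further genes 25 were then bound, and 20 of the 48 had a peak nearby, against 27.4% of all genes. None of the all-gene shares in this paragraph was matched for CpG content. The median score of bound genes stayed between 276 and 354 under the alternatives run for it. Motif windows at any start, and all alternatives for the 79 further genes, were added after the data were seen. Counts for single roles rest on 6 to 16 genes, so 1 gene moves a share by several points. The absence of a peak shows only that none passed the authors' threshold, at a depth that is unknown. No paired analysis was possible because there is 1 library of each kind and no test.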
